A study of Mus musculus with 4 samples.

Results

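The genes described here belong to the families of histone deacetylases, lysine methyltransferases and lysine demethylases, some members of which act mainly on other proteins, and the data are the PRDM6 ChIP-Seq peaks that the authors' annotation assigned to them. Genes were taken by symbol alone, as Hdac, Sirt, Kdm, Kmt, Setd, Ehmt and Suv39h followed by their number or letter, together with Ezh1 and Ezh2. The mouse RefSeq annotation held 59 such genes, and 22 of them had at least 1 assigned peak, 39 peaks in all out of 13977 in the list. The other 37 genes had no assigned peak.

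The cells were outflow tract smooth muscle cells (SMCs), which the study isolated from late-gestation mouse embryos and cultured. All of them, the Input samples included, carried a lentivirus that overexpressed FLAG-tagged PRDM6, so the assay recorded the tagged protein and not the endogenous one. The PRDM6 ChIP group had 2 libraries, precipitated with an anti-FLAG antibody after micrococcal nuclease digestion and sonication, and the Input group had 2 libraries, which entered only through the authors' peak calls and gave no value of their own. The study calls the immunoprecipitations independent in one place and made from the same sample in another, so differences between their values may be technical. No RNA was measured in these libraries, and whether the cells carried SMC markers could not be checked from them.

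Histone deacetylases remove acetyl groups from lysines and mostly work inside corepressor complexes, while lysine methyltransferases and demethylases add or remove methyl groups whose effect depends on the residue. Methylation of histone H3 at lysine 4 marks active promoters and enhancers, and methylation at lysines 9 and 27 marks silent chromatin. PRDM6 belongs to the PR domain family, related to the SET domain of the methyltransferases, and is thought to work with such enzymes. The peaks described here lie on the DNA of the enzymes' genes and say nothing about contact between the proteins.

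The following sequences are the ones the results below return to. Each is the GRCm38 (mm10) forward strand from the RefSeq genome, and the first 5 run 50 bases to either side of a summit. Capitals mark an AP-1 motif (TGAGTCA) or a TEAD motif (GGAATGT), searched on both strands, in which a TEAD motif on the reverse strand reads ACATTCC. AP-1 and TEAD proteins are transcription factors that often share enhancers. In the last 2 sequences capitals mark CpG dinucleotides, and the Sirt1 sequence is the whole 213 bp peak.
Hdac9 exon 14 peak, chr12:34287383-34287483: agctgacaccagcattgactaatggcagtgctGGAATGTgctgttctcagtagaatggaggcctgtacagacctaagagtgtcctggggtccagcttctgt
Hdac7 intron 1 peak, chr15:97837654-97837754: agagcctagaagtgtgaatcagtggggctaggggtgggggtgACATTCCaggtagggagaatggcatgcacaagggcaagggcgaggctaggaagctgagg
Kdm6a intron 2 peak, chrX:18175015-18175115: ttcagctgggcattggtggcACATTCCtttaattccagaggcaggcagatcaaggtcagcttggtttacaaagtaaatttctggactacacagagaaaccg
Setd3 intron 11 peak, chr12:108109828-108109928: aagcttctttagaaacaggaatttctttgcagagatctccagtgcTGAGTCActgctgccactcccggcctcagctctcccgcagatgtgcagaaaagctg
Setd1b upstream peak, chr5:123140147-123140247: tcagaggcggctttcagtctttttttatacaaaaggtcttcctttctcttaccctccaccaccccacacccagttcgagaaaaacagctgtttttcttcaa
Kmt2a promoter peak, chr9:44881407-44881507: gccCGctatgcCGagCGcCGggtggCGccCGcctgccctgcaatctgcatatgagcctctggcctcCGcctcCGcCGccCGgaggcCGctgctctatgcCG
Sirt1 promoter peak, chr10:63339012-63339224: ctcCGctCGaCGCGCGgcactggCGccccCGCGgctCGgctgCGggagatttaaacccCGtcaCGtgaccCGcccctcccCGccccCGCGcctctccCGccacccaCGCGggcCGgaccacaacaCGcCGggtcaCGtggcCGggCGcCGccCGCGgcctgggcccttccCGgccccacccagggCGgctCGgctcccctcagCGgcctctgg

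Peaks were assigned to 22 of the 59 genes (37.3%, 95% Wilson interval 26.1% to 50%), where 20.1% of all 21900 protein-coding genes had a peak. The families had similar shares. Peaks were assigned to 7 of 18 deacetylases with 20 peaks, to 9 of 24 methyltransferases with 13 peaks, and to 6 of 17 demethylases with 6 peaks. Within the families the genes were uneven: all 4 class IIa deacetylases (Hdac4, Hdac5, Hdac7 and Hdac9) had a peak, as did all 3 demethylase genes with a Kdm6 or Kdm7 symbol (Kdm6a, Kdm6b and Kdm7a), while none of the 4 Kdm5 demethylases, none of the 4 Kdm1 and Kdm2 demethylases, none of the 3 class IIb and IV deacetylases and none of the 3 H4 lysine 20 methyltransferases did. Of the Kdm5 genes, Kdm5d is on the Y chromosome, where the list had 0 peaks, and Kdm5c is on the X chromosome, where it had 93. With so few genes in a group these counts are a description. For example, the interval of the 4 in 4 class IIa genes reached down to 51.0%.

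The member genes are long, and long genes collected more peaks in the whole list. Their median length was 41.9 kb, compared with 17.1 kb for all protein-coding genes. Members with a peak had a median of 70.7 kb and members without one 29.8 kb. In the longest quartile of all genes, above 44.3 kb, 15 of 26 members (57.7%) and 44.2% of all genes had a peak. In the quartile below it, which begins at 17.1 kb, the shares were 6 of 25 members (24.0%) and 18.3% of all genes, so the gap between members and all genes was narrower within a quartile than over all lengths. Counted by position alone, 18 of the 59 members had a peak inside the gene or in the 3 kb before it, compared with 15.4% of all genes. Over the same spans, genes with the 3 kb before them, the density of peaks was 8.62 per Mb in the members (37 peaks in 4.29 Mb) and 7.0 per Mb over all protein-coding genes. Among the long members Hdac8, 221 kb, and Kdm2b, 119 kb, had no peak. Hdac8 is also on the X chromosome, as is Kdm6a, which had a peak.

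**Figure D1:**
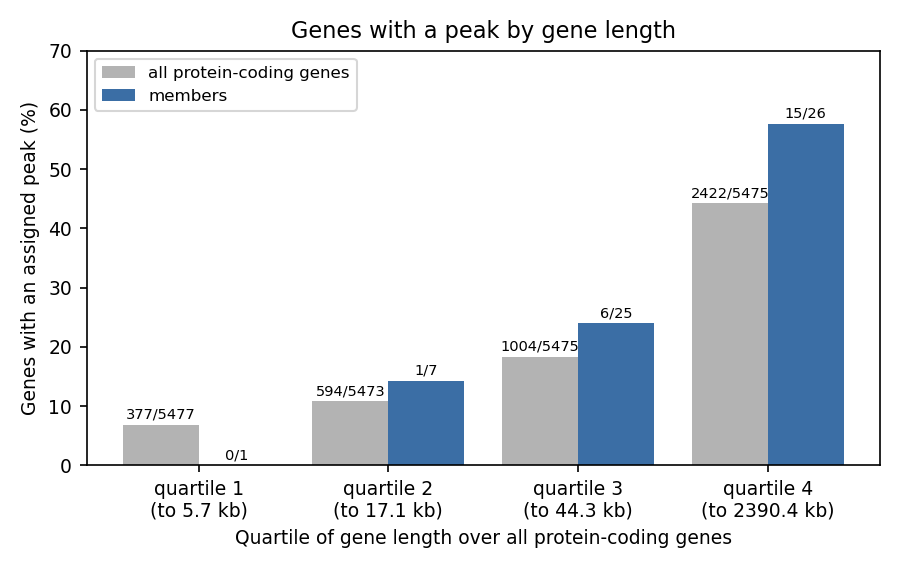
Share of genes with an assigned peak (percent, y axis) by quartile of gene length (x axis, with the longest gene of each quartile in kb) for all protein-coding genes (grey) and the members (blue), with the counts above the bars. The share rises with length in both sets, to 44.2% of all genes and 57.7% of members in the longest quartile.

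The member peaks were of ordinary strength for this list. The deposited −log10 p-value, which is the smaller of the values in both replicates, was 3.44 at the lowest member peak, 5.84 at the median and 9.37 at the highest, compared with 3.01, 5.53 and 28.97 over all peaks. The list names the replicates only by order. In the first-listed replicate the medians were 6.92 for both sets, and in the second-listed they were 5.84 for the members and 6.61 for all peaks. The global IDR estimates, from the ranks in both replicates, the share of irreproducible peaks among those ranked at least as high. This IDR was above 0.05 for every member peak. Thus 0 of 39 reached this limit, where a count of 0 allows up to 3 peaks, a share of 7.69%, and 3.33% of all peaks did. The score of 48, the lowest there is, was that of 17 of the 39 peaks (43.6%), compared with 41.4% of all peaks. Member peaks of this score had an IDR of 0.759. The median IDR was 0.525 for the member peaks and 0.55 for all peaks. An IDR above 0.5 was that of 22 of the 39 (56.4%) and of 59.1% of all peaks. The lowest IDR of a member peak was 0.132. Across the 39 peaks the replicates' values had a Spearman correlation of 0.381, and across all peaks 0.263. These are correlations across peaks of the same libraries, and many values are tied: the 10 commonest values held 50.1% of the first-listed and 55.8% of the second-listed values.

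**Figure D2:**
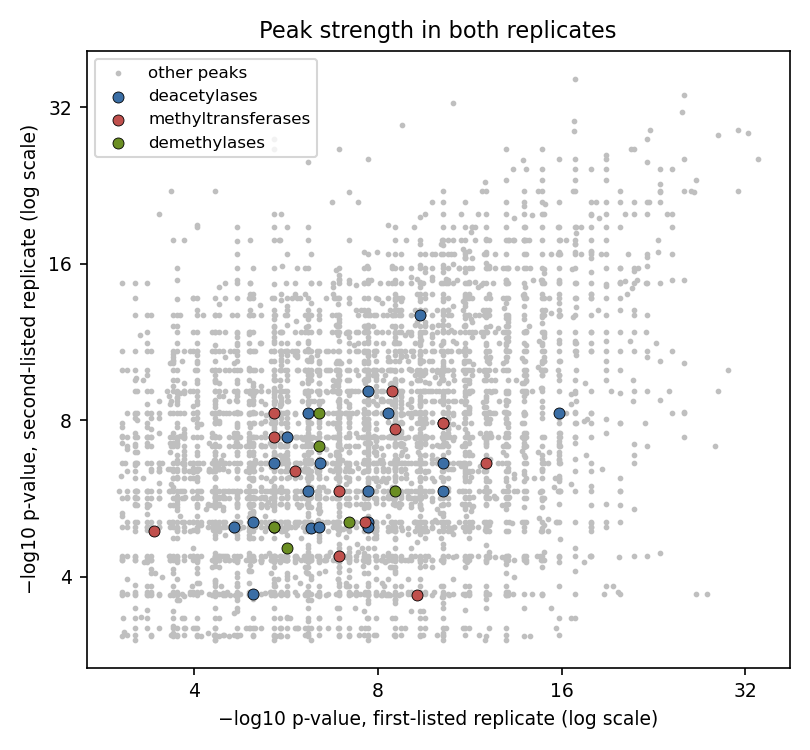
Deposited −log10 p-value of each peak in the first-listed replicate (x axis) and the second-listed replicate (y axis), both on log scales, with member peaks coloured by family and all other peaks in grey. The member peaks lie inside the cloud and below the strongest peaks, none reaching a matched value above 9.37, and the rows and columns of points are tied values.

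By gene region, 11 member peaks (28.2%, 16.5% to 43.8%) were annotated to a promoter, within 3 kb of a transcription start site (TSS), compared with 21.3% of all peaks. A further 16 (41.0%, 27.1% to 56.6%) were intronic, compared with 35.9%, and 9 (23.1%, 12.6% to 38.3%) were distal intergenic, compared with 37.2%. The remaining 3 (7.69%) were exonic, compared with 4.10%. All 4 shares over all peaks lay within the members' intervals, the distal intergenic one near the upper end. The promoter count rests in part on transcripts outside the GENCODE basic set. Only 5 of the 11 promoter peaks (45.5%) came within 3 kb of the start of a GENCODE basic transcript of the same gene, those of Ehmt1, Kmt2a, Kmt2e, Setd1b and Sirt1, compared with 79.6% of all promoter peaks. Under that stricter definition, added after seeing the data, the promoter share was 12.8% for the members and 17% for all peaks, so the order of the shares turned. Of the 3 exonic peaks, only the Hdac9 peak touched an exon of its own gene. The Kmt2c peak lay on the pseudogene Hspe1-ps3 inside Kmt2c, and the third Sirt4 peak on the pseudogene Gm13836. Pseudogenes are near-copies of another gene, so reads there may align uncertainly. The authors required a minimum mapping quality, and how far it dealt with such reads here was not tested.

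**Figure D3:**
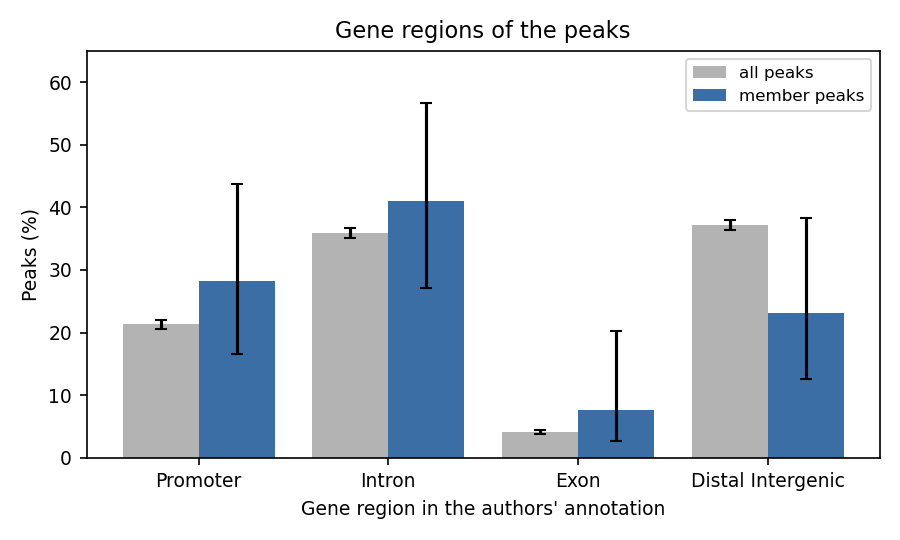
Share of peaks (percent, y axis) in each gene region of the authors' annotation (x axis) for all 13977 peaks (grey) and the 39 member peaks (blue), with 95% Wilson intervals as bars. Each interval of the members is wide and takes in the share over all peaks.

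The class IIa deacetylases respond to signals by moving between nucleus and cytoplasm and act as corepressors of MEF2 factors. Hdac9 had the most peaks of any member, 6 across a gene of 870 kb. By position alone it held 8 peaks with the 3 kb before it, 2 of them assigned to another gene. That was 9.17 peaks per Mb, compared with 8.48 in the other members and 7.0 over all protein-coding genes. The strongest peak of all members overlapped exon 14 of 25 (chr12:34286917-34287640), with −log10 p-values of 9.37 in the first-listed and 12.8 in the second-listed replicate and a score of 366. In the whole list 1127 peaks (8.06%) had a higher matched value. Its summit lay outside the exon, 15 bp from the TEAD motif shown above. On either side of it lay a peak in intron 13 (chr12:34296020-34296802), with 10.2 and 7.92, and a weaker one in intron 15 (chr12:34281978-34282623), with 6.21 and 4.97, so that 3 peaks fell within 14.8 kb. Intron 1 held a peak (chr12:34498059-34499396) with 15.8 in the first-listed replicate, the highest single value among the members, but only 8.25 in the second-listed. The other 2 Hdac9 peaks were weaker than those in exon 14, intron 13 and intron 1. That in intron 16 (chr12:34224430-34225652) had 7.71 and 5.84 and that in intron 3 of a longer transcript (chr12:34803830-34804206) 6.15 and 5.84. Intron and exon numbers here are those of the transcript the authors' annotation chose.

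A stronger peak than any assigned to a member lay inside Hdac9 under another name. The annotation assigned 2 peaks in the Hdac9 gene body to Twist1, the neighbouring gene, which encodes a transcription factor of mesenchymal cells. The peak in intron 24 of 24 (chr12:34075643-34076996) had −log10 p-values of 16.9 and 14.7 and a score of 802, and its IDR of 0.0117 was the only one below 0.05 among the 8 peaks in the member genes, or in the 3 kb before them, that were assigned to other genes. The summit was 118 kb from the Twist1 TSS and 28.5 kb inside the 3′ end of Hdac9. The other, in intron 21 (chr12:34144241-34144530), had 6.92 and 6.61, a score of 154 and an AP-1 motif within 100 bp of its summit. The 6 peaks named for Hdac9 lay 267 to 846 kb from the same TSS. As background, exons of HDAC9 are known to act as enhancers of TWIST1. These libraries measured no contact or expression, and to which gene any of these peaks belongs was not tested.

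Hdac4 had 4 peaks. The strongest was in intron 2 (chr1:92075176-92076151), with 10.2 in the first-listed and 6.61 in the second-listed replicate and a score of 173. The other 3 had the lowest score, 48. They were in intron 3 (chr1:92042443-92042730), with 6.42 and 4.98, at the 5′ end of the gene (chr1:92195780-92196358), with 4.66 and 4.98, and beyond the 3′ end (chr1:91883056-91883347), with 7.71 and 4.98. The 5′ peak was annotated as a promoter, 81 bp before a noncoding transcript, and lay 15439 bp from the nearest basic transcript start. The intergenic peak was 45.6 kb past the 3′ end of Hdac4, and the nearest protein-coding TSS, at 81.7 kb, was that of Twist2, a paralog of Twist1. Hdac7 had 1 peak, in intron 1 (chr15:97837439-97837823), with closely similar values of 6.42 and 6.61, a score of 141 and a TEAD motif 5 bp from its summit. Hdac5 had 2 peaks (chr11:102216406-102216696 and chr11:102218844-102219186), both of the lowest score, with 5.00 and 5.10 for the first and 5.00 and 3.71 for the second. Both lay over 10 kb into the gene, near the start of a transcript outside the basic set.

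**Figure D4:**
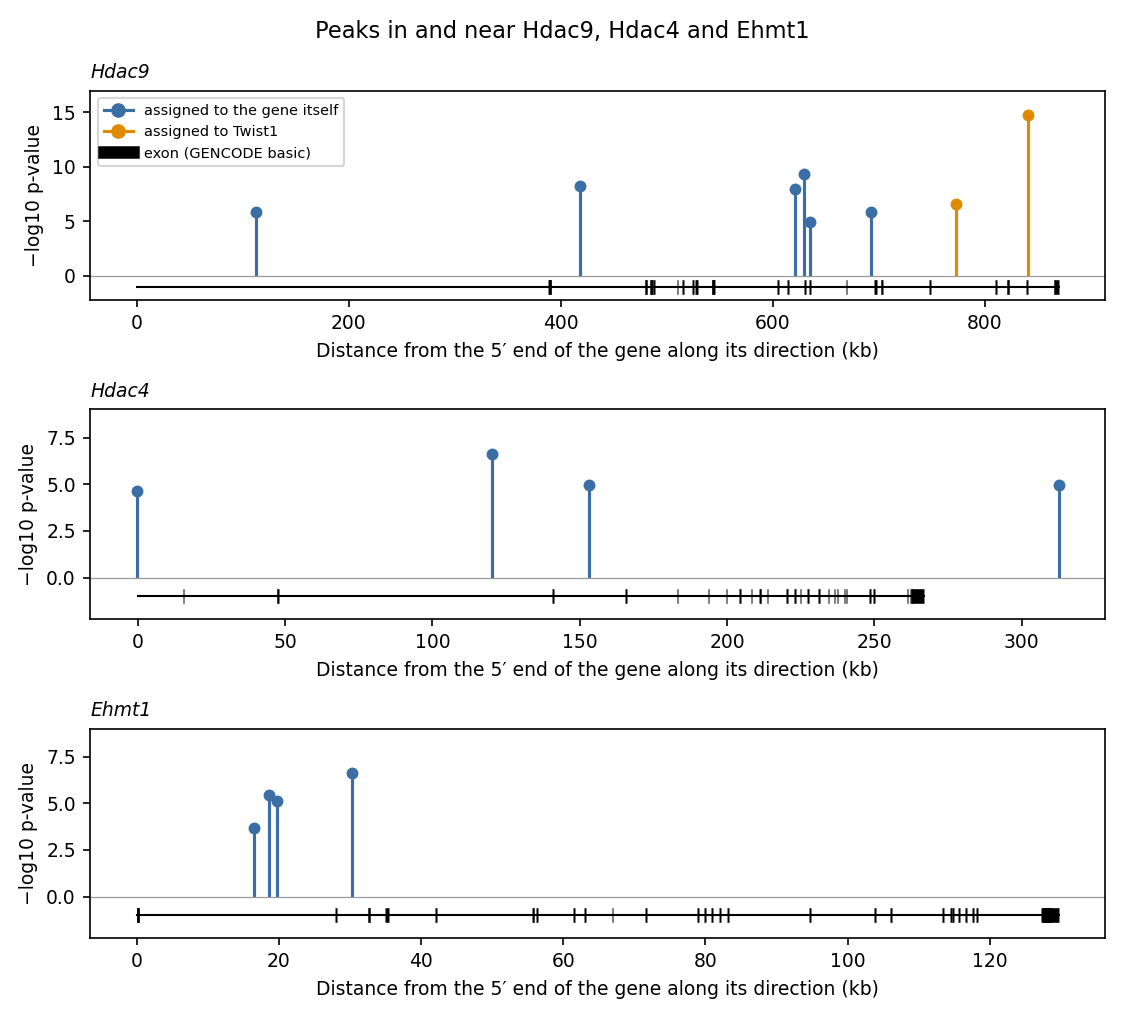
Deposited −log10 p-value (y axis, smaller of both replicates) of the peaks in and near Hdac9, Hdac4 and Ehmt1 by distance from the 5′ end of the gene (x axis, kb), with exons as black blocks, peaks assigned to the gene in blue and peaks assigned to Twist1 in orange. The highest point in the Hdac9 panel, at 14.7, is assigned to Twist1, and the 4 Ehmt1 peaks lie together in the 5′ part of the gene.

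Among the class I deacetylases, which include the Hdac1 and Hdac2 enzymes of the NuRD, Sin3 and CoREST complexes and the Hdac3 enzyme of NCoR, only Hdac2 had peaks. Hdac1, Hdac3 and Hdac8 had none. All 3 Hdac2 peaks were outside the gene. The strongest (chr10:37034850-37035863) had 8.31 and 8.25 and a score of 217, but the summits of the replicates were 710 bp apart. A second peak on the same side (chr10:37047518-37048014) had 10.2 and 5.84, and the third, 112031 bp before the TSS (chr10:36862158-36862513), had 7.71 and 5.10. The 2 on the downstream side lay 36678 bp and 49346 bp from the TSS of the transcript used, a retained-intron transcript. From the nearest basic start they lay 60280 bp and 72948 bp. Sirtuins are NAD-dependent deacetylases, and 2 of 7 had a peak. Sirt1, a nuclear sirtuin, had 1 peak of only 213 bp across its TSS, with 5.42 and 6.61 and the lowest score, on the CpG-rich sequence shown above (GC content 79.8%, 32 CpG). The mitochondrial sirtuin Sirt4 had 3 peaks within 3.10 kb, upstream of the gene. The nearest (chr5:115489098-115489431) had 7.71 and 9.10 and a score of 220, the next (chr5:115489690-115489950) 6.15 and 8.25, and the one on the pseudogene (chr5:115491761-115492193) 5.69 and 7.42. The second-listed replicate was the higher one in all 3.

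Among the H3 lysine 9 methyltransferases only Ehmt1, also called GLP, had peaks. Its partner Ehmt2, also called G9a, had none, nor did Suv39h1, Suv39h2, Setdb1 and Setdb2. The 4 Ehmt1 peaks lay within 14.3 kb in the 5′ part of the gene. That nearest the start of an inner transcript (chr2:24889003-24889729) had 12.03 in the first-listed and 6.61 in the second-listed replicate, with a score of 154. Those in intron 1 were weaker in at least 1 replicate, with 7.63 and 5.10 (chr2:24899326-24900385), 5.42 and 8.25 (chr2:24900844-24901164) and 9.28 and 3.68 (chr2:24903029-24903333). The replicates thus differed in which of the 4 was strongest, and in the first 2 of these the replicates' summits were 448 bp and 562 bp apart. Ezh2, the catalytic subunit of Polycomb repressive complex 2, had only the weakest of all member peaks, with 3.44 and 4.89, 89875 bp before its TSS (chr6:47685216-47685538), and Ezh1 had none.

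Among the Kmt2 and Setd1 genes, most of which encode H3 lysine 4 methyltransferases, 4 of 7 had 1 peak each. The Setd1b peak (chr5:123139492-123140332), 1861 bp before the TSS, had the highest matched value of the methyltransferases, with 8.44 and 9.10 and a score of 232, although the Setd3 peak below had a higher score. The Kmt2e peak (chr5:23435609-23435864) was 1160 bp past the TSS, with 6.92 and 5.84. The Kmt2a peak (chr9:44881392-44881844) was 96 bp before the TSS, with 5.42 and 4.98, and the Kmt2c peak (chr5:25391579-25392002), on the pseudogene, had 6.92 and 4.39. Kmt2a encodes MLL1, and its peak and that of Sirt1 were the 2 member peaks with at least 20 CpG within 100 bp of the summit. Over all peaks 2.56% had so many, and over all promoter peaks 11.3%.

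The other Setd genes with peaks were Setd2, Setd3 and Setd5. Setd3, whose protein methylates a histidine of actin and not chiefly histones, had a peak near its 3′ end, in intron 11 of 12 (chr12:108109408-108110120), with 10.2 and 7.92 and a score of 246. It held the AP-1 motif nearest to a summit, 2 bp away. Setd5 had a peak of score 213 in intron 1 (chr6:113099475-113100176), with 8.52 and 7.71, and one in intron 16 (chr6:113132898-113133798), with 5.85 and 6.39. Setd2, which trimethylates H3 lysine 36, had a peak with 5.42 and 7.42 on the start of an inner transcript (chr9:110560891-110561297), 28380 bp into the gene. Setd7, which monomethylates H3 lysine 4, had no assigned peak, yet 3 peaks lay in its body or just before it under the noncoding gene 5031434O11Rik, with matched values of 4.32 to 4.66. In the 3 kb before Setd5, 2 peaks were assigned to the noncoding gene Gt(ROSA)26Sor, with matched values of 3.19 and 7.31. Likewise 1 peak in the 3 kb before Kmt2e was assigned to 5031425E22Rik, with 4.39.

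Each demethylase with a peak had 1 only, and none was among the 8 strongest member peaks. Kdm3a, an H3 lysine 9 demethylase, had a peak (chr6:71609640-71610121) with 8.52 and 5.84 and a score of 136. It was annotated as a promoter, 501 bp before a noncoding transcript, but lay 22565 bp from the nearest basic start. Its paralog Kdm3b had a weaker intronic peak (chr18:34780314-34780937), with 5.69 and 4.55, and Kdm4c, of the same substrate class, a peak with 6.42 and 8.25 (chr4:74259237-74259875). The H3 lysine 27 demethylases Kdm6a and Kdm6b had peaks in intron 2 (chrX:18174262-18175604), with 6.42 and 7.14, and 3776 bp before the TSS (chr11:69417451-69417954), with 5.42 and 4.98. Kdm7a had a peak 18692 bp before its TSS (chr6:39225481-39226591), with 7.17 and 5.10. Repeat sequence, masked in the RefSeq genome, took up 84.1% of the bases within 100 bp of the Kdm3b summit and 80.1% of those around the Kdm6a summit. The TEAD motif of Kdm6a shown above lay in that window. Summits on repeats were found in 11 of 39 member peaks (28.2%) and in 17.9% of all peaks, and the median masked share was 12.9% and 11.9%.

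**Figure D5:**
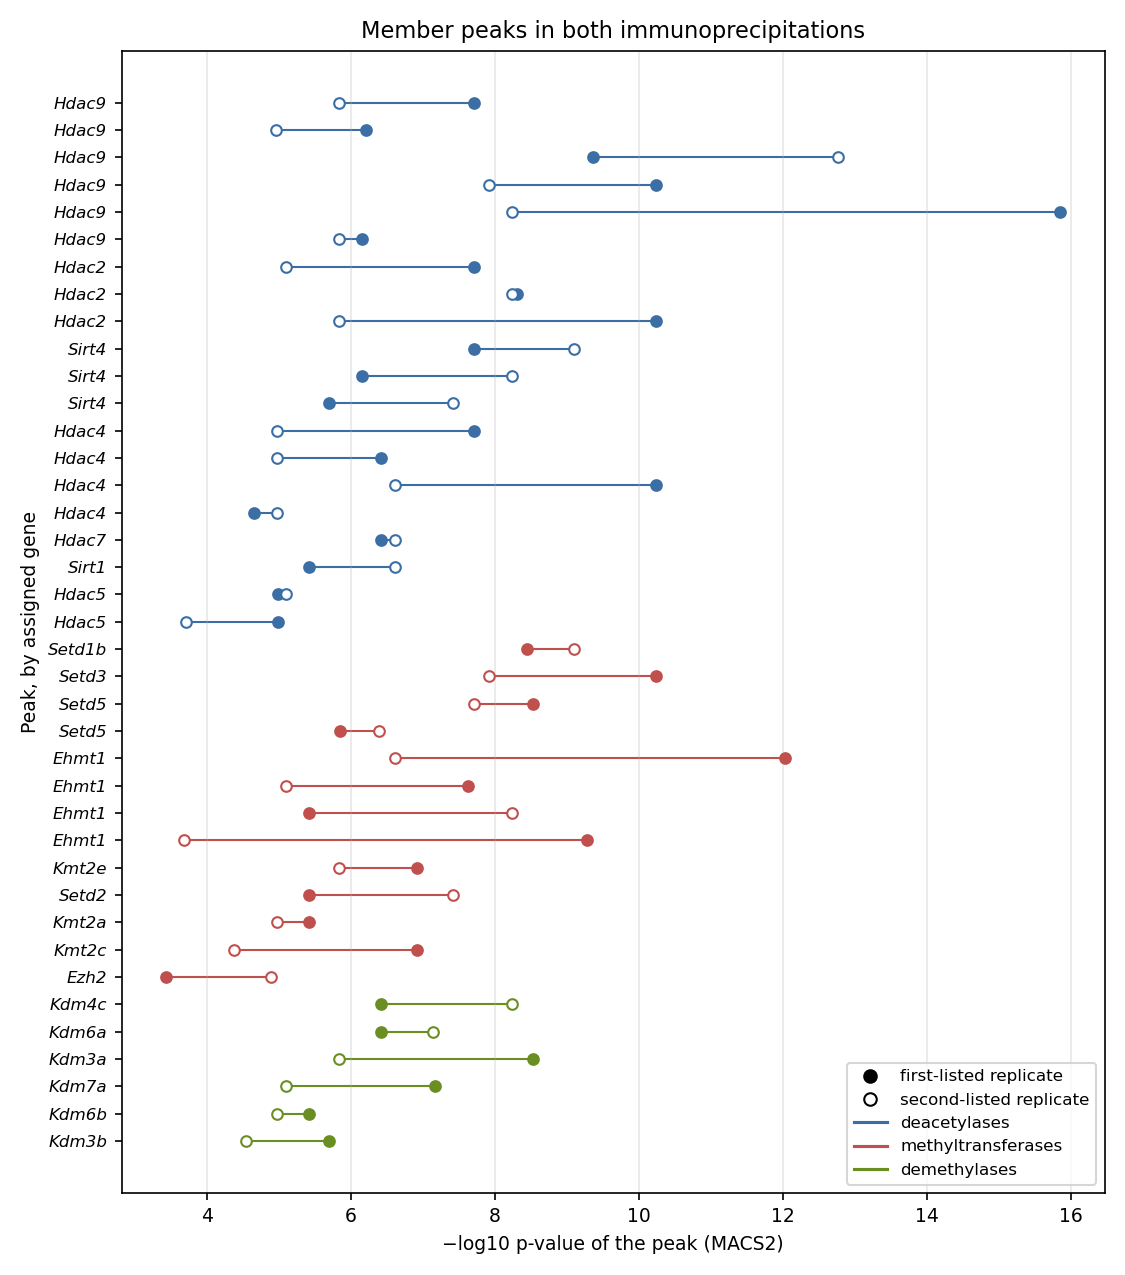
Deposited −log10 p-value (x axis) of each of the 39 member peaks (y axis, labelled by assigned gene and grouped by family) in the first-listed (filled) and second-listed (open) replicate, joined by a line. Within a gene the peaks run in genome order. The first-listed value is the higher in 24 of the 39, and the widest gap is in an Hdac9 peak, from 15.8 to 8.25.

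Most members with a peak had a single one, 15 of 22 (68.2%), compared with 47.6% of all protein-coding genes with a peak. The median was 1 peak compared with 2, and 13.6% compared with 21.6% had 4 or more. Ehmt1, Hdac2, Hdac5, Hdac9 and Sirt4 had at least 2 peaks with a gap under 20 kb, 5 of 22 genes (22.7%), compared with 41.2% of all genes with a peak. The median distance to the TSS of the transcript used was 7036 bp for the member peaks and 22731 bp for all peaks, and 22 of 39 (56.4%) and 34.8% lay within 10 kb. Measured to basic transcript starts, a distance added after seeing the data, the medians were 15439 bp and 34340 bp, and 15 of 39 (38.5%) and 27.5% lay within 10 kb. By the transcripts used, 6 member peaks (15.4%, compared with 19.3%) lay beyond 100 kb, 5 of Hdac9 and 1 of Hdac2. By basic starts there were 9 (23.1%, compared with 25.4%), of Hdac9, Hdac4, Hdac2 and Kmt2c. The median width was 497 bp compared with 600 bp.

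Motif shares at the member summits differed from those of the whole list in opposite directions, within wide intervals. An AP-1 motif lay within 100 bp of 3 of the 39 summits (7.69%, 2.65% to 20.3%), those of Setd3, Kdm7a and the intron 16 peak of Hdac9, compared with 14.3% of all peaks. A TEAD motif lay within 100 bp of 6 summits (15.4%, 7.25% to 29.7%), compared with 7.37%. These were the Hdac9 exon 14, Hdac7, Kdm6a and Kdm4c peaks and 2 of the Ehmt1 peaks, at distances of 5 to 96 bp. Both shares over all peaks lay within the members' intervals, the TEAD share near the lower end. No member promoter peak held an AP-1 motif and 2 of 11 held a TEAD motif, while 8.33% and 5.38% of all promoter peaks did. These matches are of 7 fixed letters and are not evidence of occupancy by either factor.

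Genes of other chromatin enzymes and of the complexes these enzymes work in had peaks at a share between the members and all genes, 21 of 85 (24.7%, 16.8% to 34.8%). Of the histone acetyltransferases, which oppose the deacetylases, 6 of 14 had a peak, the strongest at Kat6b with 7 peaks and a top matched value of 8.25. Ep300, which encodes p300, had 1 peak of the lowest score on its TSS. Of the HDAC corepressor subunits 6 of 26 had a peak. Among these Tbl1xr1, an NCoR complex subunit, had 25 peaks and a strongest matched value of 14.7 with a score of 850, above that of any member. Of the Polycomb repressive complex 2 subunits other than the Ezh genes 3 of 7 had peaks, with the highest matched value, 12.03, at Jarid2 (5 peaks) and the most peaks, 7, at Aebp2, and Ezh2 had its weak distal peak only. The COMPASS subunits that partner the Kmt2 and Setd1 enzymes had none in 10 genes (0% to 27.8%, an interval that holds the 20.1% of all genes). Gene length differed between these lists, with a median of 22.9 kb for the COMPASS subunits and 73.2 kb for the acetyltransferases, and its part in the counts was not tested. Other lysine methyltransferases had peaks in 3 of 11 genes, led by Mecom with 9 peaks and 10.9. Other lysine demethylases had peaks in 2 of 8 genes, Jmjd1c with 5 peaks and Phf2 with 1, and arginine methyltransferases in 1 of 9, at Prmt6, from a peak 470391 bp away.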

How the data were processed

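Binding of FLAG-PRDM6 was measured by ChIP-Seq in 2 libraries, with 2 Input libraries as the control of the peak calls. The authors aligned reads to mm10 with BWA and required a minimum mapping quality. They called peaks in each replicate with MACS2 and matched the replicates by IDR (versions not given in the sources used here). The deposited −log10 p-values are those of MACS2, the deposited score is the scaled IDR, where 540 stands for an IDR of 0.05, and the columns for signal and q-value hold a placeholder of -1. A column that the authors' annotation calls a q-value repeats the second-listed replicate's −log10 p-value. Read totals are not in the list, so the depth is unknown, and the columns were not tied to a numbered sample.

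Members were found by symbol in the authors' annotation and in RefSeq (GRCm38), where 5244 of the 5246 assigned gene IDs were found. Transcripts came from GENCODE M21 basic, in which all 3989 transcripts shared with the annotation had identical ends. Every member with a peak was described. Peak by peak values were given in full for the genes with the strongest or the most peaks and for Hdac2 and Kdm3a, and more briefly for the rest. The rule also named Ehmt2, Hdac1 and Hdac3, which had no peak. The members, gene lists and rules were chosen with earlier results of these data known. No test was run: peaks and genes are not replicates, and Wilson intervals (95%) cover counting error only. Motif search, overlaps and intervals were tested on simulated data. Alternatives were limits on IDR, distance, strength and promoter width, other motif windows and each replicate alone. Scripts ran on pysam 0.24.0, pandas 2.3.3, NumPy 2.4.6, SciPy 1.17.1 and matplotlib 3.10.9 under Python 3.11.15.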

Additional observations from a re-analysis of the deposited data

How the results depend on the processing

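At an IDR of at most 0.05 no member gene kept a peak (0 genes, compared with 1.64% of all genes), so every count of peaks assigned to the members rests on peaks above that limit. The promoter share fell from 28.2% to 15.4% with promoters of 1 kb (14.7% of all peaks) and to 12.8% by basic transcript starts, an alternative chosen after seeing the data (17% of all peaks), and the AP-1 share to 2.56% within 50 bp (7.61%). The TEAD share was 7.69% within 50 bp (4.06% of all peaks) and 23.1% within 250 bp (16.1%). By the same basic starts the share of peaks within 10 kb of the TSS fell from 56.4% to 38.5% (27.5% of all peaks). With 1 replicate at a time the median strength was 5.84 to 6.92, the genes with a peak of at least 5 were 17 to 20 (17.7% and 17.5% of all genes), the AP-1 share was 5.13% to 10.3% (12.3% and 13.3% of all peaks) and the TEAD share 10.3% at either summit (7.26% and 6.9%). The other alternatives stayed within the members' intervals or within 1.5 times the count. No paired analysis was possible because the Input samples have no values in the list. Small numbers of peaks limit every share.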
